A study of Mus musculus with 9 samples.

Results

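Nicotinic acetylcholine receptors are ion channels that open when acetylcholine or nicotine binds, and the 10 subunit genes described here are Chrna1, Chrnb1, Chrnd, Chrng, Chrne, Chrna4, Chrna5, Chrna7, Chrnb2 and Chrnb4. They were taken by gene symbol from a table of 47729 mouse genes, and they were chosen by values already seen in these libraries, namely the differences of their counts between tumour cells and stem cells, so their own levels are given as a description without a test. RNA was sequenced from 9 cell cultures, 3 of each of 3 kinds, which the series describes as independent. The LTR group (cultures 1 to 3) holds tumour cells derived from neural stem cells with the genotype label lgT/Ras. The NF1 group (cultures 1 to 3) holds tumour cells derived from neural stem cells with the genotype label shp53, Nf1-/-, CDK4. The NSC group (cultures 1, 3 and 5) holds wild-type primary neural stem cells. All 3 groups trace back to the subventricular zone, a stem cell niche along the lateral ventricles of the brain, and every culture was grown in neural stem cell medium for up to 10 passages. The promoters that drive the added genes, the age and strain of the mice, and whether the cultures of a tumour group were transformed separately are not stated by the labels, so p-values measure only the spread between these cultures.

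Each receptor is a ring of subunits around a cation pore, and the mixture of subunits decides where it works and how it opens. The muscle-type receptor of the neuromuscular junction is built from the products of Chrna1, Chrnb1 and Chrnd together with Chrng in fetal muscle or Chrne in adult muscle. The brain uses other subunits: Chrna4 and Chrnb2 form the main high-affinity nicotine receptor, Chrna7 forms receptors from a single kind of subunit that let calcium through, Chrna5 joins other subunits as an accessory, and Chrnb4 works with Chrna3 in autonomic ganglia.

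Chrna1 and Chrnb1 mRNA was higher in every LTR and every NF1 library than in any NSC library, while Chrna4 was counted in all 3 NSC libraries and in 1 of the 6 tumour libraries. The partner subunits Chrnd, Chrng and Chrne stayed at trace counts or at 0 throughout, and the other brain subunits were low in all groups, with overlap between tumour and NSC libraries for Chrna5 and Chrna7 in both tumour groups and for Chrnb2 in NF1. Of the 10 subunit genes, 5 had enough counts to be fitted in the comparison of all genes (Chrna1, Chrnb1, Chrna4, Chrna7 and Chrnb2), and the other 5 did not (Chrnd, Chrng, Chrne, Chrna5 and Chrnb4).

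Total counts were 28600479 to 32736056 in LTR, 31181787 to 34230788 in NF1 and 35543564 to 57231024 in NSC. CPM below means counts scaled to library size, and 3 counts, the upper limit that a count of 0 allows, correspond to 0.0541 CPM in the deepest library (NSC 3) and to 0.114 CPM in the shallowest (LTR 2). Per the file headers the NSC libraries were sequenced on another flow cell lane than the tumour libraries, and an effect of the lane cannot be told apart from that of the group. The stem cell marker Sox2 was present in all groups, at 178 to 276 CPM in LTR, 259 to 331 CPM in NF1 and 307 to 357 CPM in NSC. For Sox2 and Nes, all LTR libraries lay below NSC and NF1 overlapped with NSC. Olig2 was 13.1-fold lower in LTR (adjusted p = 0.00285 by edgeR) and 4.87-fold lower in NF1 (adjusted p = 0.021). Egfr was 21.2-fold lower in LTR (adjusted p = 0.000458) and 60.9-fold lower in NF1 (adjusted p = 0.000203). The glial glutamate transporter Slc1a3 was at 0 to 0.114 CPM in LTR, 0.174 to 4.77 CPM in NF1 and 660 to 920 CPM in NSC. Trp53, the gene named by shp53, was higher in NF1 (151 to 221 CPM) than in NSC (101 to 114 CPM), with a log2 fold change of 0.87 (adjusted p = 0.0141). A lower level is thus not seen against wild-type cells. Trp53 was at 223 to 281 CPM in LTR, whose label does not name it, and was higher there than in NSC (1.23, adjusted p = 0.00258). All NF1 libraries lay below LTR for Trp53, a difference that was not called (-0.37, adjusted p = 0.567). Nf1 overlapped between NF1 (40.1 to 97.1 CPM) and NSC (82.4 to 114 CPM). Cdk4 overlapped between NF1 (393 to 1123 CPM) and NSC (325 to 455 CPM), and was at 934 to 1020 CPM in LTR. Hras was called higher in NF1 (122 to 167 CPM, adjusted p = 0.0367) than in NSC (72.1 to 94.4 CPM) and not in LTR (92.2 to 165 CPM, adjusted p = 0.0991), and the label of LTR does not say which Ras gene was added. "NF1" therefore stands throughout for the libraries labelled NF1, and every direction given for them rests on that label. NF1 2 stood apart from NF1 1 and NF1 3 and lay between them and NSC for many of the genes below. NSC 3 stood apart from NSC 1 and NSC 5. Values without these libraries are given for some of the genes only. Further genes that did not pass over all libraries passed without NF1 2 or without NSC 3.

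Chrna1 encodes the alpha subunit that binds acetylcholine in the muscle-type receptor. The gene (ENSMUSG00000027107) lies on chromosome 2 at 73563215 to 73580338 (GRCm38, minus strand). Its 250 bases before the RefSeq transcription start (chr2:73580339-73580588, minus strand, GRCm38.p6) are shown because Chrna1 had the largest fitted increase of the 5 fitted subunits, and because muscle genes are known to be switched on through E-boxes, the CANNTG motifs bound by myogenic factors of the basic helix-loop-helix class. Capitals mark the E-boxes, found on both strands.

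Chrna1: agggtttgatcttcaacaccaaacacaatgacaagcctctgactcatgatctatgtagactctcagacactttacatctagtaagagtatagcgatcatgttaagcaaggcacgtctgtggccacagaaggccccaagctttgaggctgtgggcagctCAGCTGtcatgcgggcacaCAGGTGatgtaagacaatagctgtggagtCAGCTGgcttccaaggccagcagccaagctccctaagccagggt

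The window holds 3 CANNTG motifs, and 2 of them are CAGCTG. Among 32851 RefSeq promoter windows of the same length, 12.2% hold 3 or more CANNTG motifs and 1.26% hold 2 or more CAGCTG motifs, which are a subset of CANNTG. Of the 10 subunit genes, 9 had a window (Chrnd did not). The Chrng window also holds 2 CAGCTG motifs, and the Chrne and Chrnb4 windows hold 1 each. The Chrnb1 window holds 3 CANNTG motifs, none of them CAGCTG, and 4 GC boxes (GGGCGG, both strands), where 8.47% of all windows hold 3 or more GC boxes. The Chrna4 window has no E-box and 3 GC boxes, and its GC content is 74.4%. A window of Chrna5 (chr9:54981238-54981487) also holds 4 GC boxes, and that of Chrna7 holds 1. Both of these overlap exons of their own genes. Unlike that of Chrna1, the windows of Chrng, Chrne, Chrnb4, Chrnb1 and Chrna4 overlap annotated exons of their own genes, and that of Chrnb1 also exons of Fgf11. The Chrng and Chrna4 windows lie inside the gene spans given below. A motif match is a description of letters and not a site of binding.

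Chrna1 was counted 1053, 813 and 671 times in LTR 1 to 3 and 793, 485 and 555 times in NF1 1 to 3, against 2, 22 and 2 times in NSC 1, 3 and 5. The levels were 31.2, 31.0 and 20.0 CPM in LTR and 23.0, 15.5 and 18.9 CPM in NF1, against 0.0529, 0.397 and 0.0536 CPM in NSC. All 6 tumour libraries were high, all 3 NSC libraries were low, and NSC 3 held most of the NSC counts. The mean was 27.4 ± 6.4 CPM in LTR and 19.1 ± 3.73 CPM in NF1, against 0.168 ± 0.198 CPM in NSC (SD, n = 3 each). On the log2 scale the fitted difference from NSC was 7.21 ± 0.71 (SE) for LTR, a 148-fold higher level, and 6.70 ± 0.69 for NF1, a 104-fold higher level. Without NSC 3 the fitted differences were 9.03 for LTR and 8.49 for NF1. Against the 4 counts of NSC 1 and NSC 5 alone, the scaled count ratio was 510 for LTR (95% counting interval 199 to 1872) and 362 for NF1 (141 to 1330).

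Chrnb1 encodes the beta subunit of the muscle-type receptor, a structural partner of the alpha subunit. The gene (ENSMUSG00000041189) lies on chromosome 11 at 69784036 to 69795943 (minus strand). It was the most abundant subunit per exon length in all 9 libraries, at 60.5, 66.3 and 61.5 CPM in LTR and 55.7, 26.3 and 51.3 CPM in NF1, against 18.2, 10.4 and 21.0 CPM in NSC. The groups of tumour libraries did not overlap with NSC, and NF1 2 came closest to it. The mean was 62.8 ± 3.07 CPM in LTR and 44.5 ± 15.9 CPM in NF1, against 16.5 ± 5.46 CPM in NSC (SD, n = 3 each). The log2 difference from NSC was 1.92 ± 0.34 for LTR (3.8-fold) and 1.43 ± 0.33 for NF1 (2.69-fold). For NF1 it was 1.24 without NF1 1, where the gene no longer passed, and 1.71 without NF1 2.

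The other subunits that a muscle-type receptor needs were close to absent. Chrnd (ENSMUSG00000026251, chromosome 1 at 87190607 to 87200070, plus strand), the delta subunit, was counted 23, 4 and 4 times in LTR and never in NF1, against 2, 0 and 0 times in NSC. LTR 1 held most of these counts, at 0.682 CPM, and the scaled count ratio of LTR to NSC was 21.6 with a 95% counting interval of 5.51 to 187. Against LTR, Chrnd was at least 10.5-fold lower in NF1 when 3 counts are set for the NF1 group. These intervals and bounds cover counting error only.

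Chrng (ENSMUSG00000026253), the gamma subunit of the fetal receptor, lies 4.59 kb from Chrnd on the same strand, at 87204657 to 87212694. It was counted 1, 0 and 1 times in LTR and 1, 19 and 0 times in NF1, against 0 in every NSC library. The NF1 counts were those of NF1 2, at 0.608 CPM, so the level belongs to a single culture. Chrne (ENSMUSG00000014609, chromosome 11 at 70614883 to 70619216, minus strand), the epsilon subunit of the adult receptor, had 2 counts in NF1 2 and 0 in the 8 other libraries. Neither the fetal nor the adult partner subunit therefore came near the level of Chrna1 or Chrnb1 in any library.

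**Figure D1:**
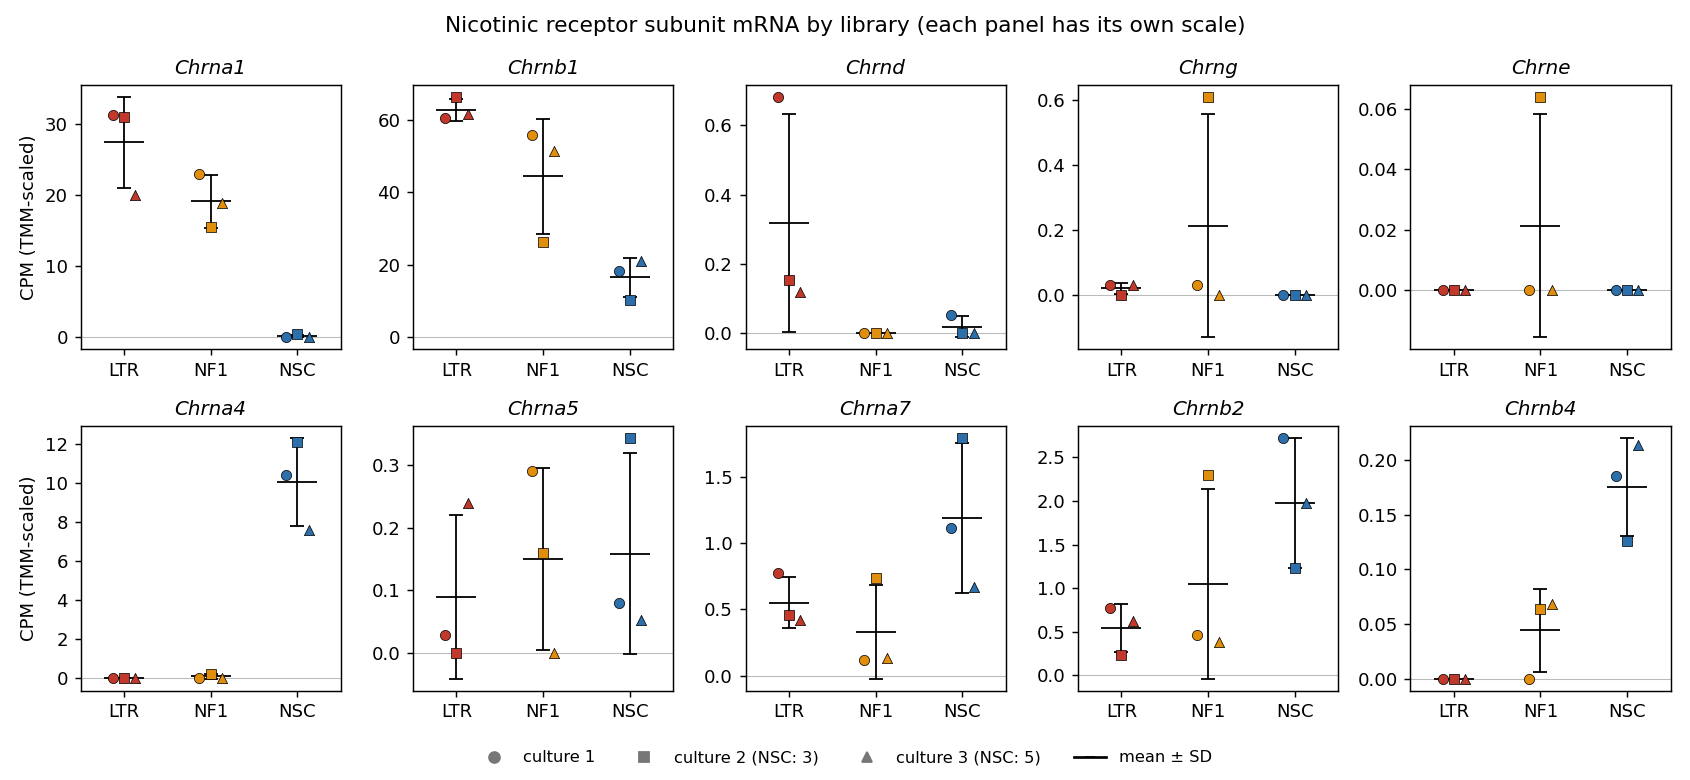
TMM-scaled CPM of the 10 subunit genes in each library, with LTR, NF1 and NSC from left to right in each panel, points for the single cultures and bars for the mean ± SD (n = 3). Chrna1 and Chrnb1 were higher in all tumour libraries than in NSC, Chrna4 was present in NSC and at 0 in 5 of 6 tumour libraries, and the panels of Chrnd, Chrng, Chrne, Chrna5 and Chrnb4 end below 1 CPM.

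Chrna4, the alpha subunit of the main brain receptor, showed the opposite pattern. The gene (ENSMUSG00000027577) lies on chromosome 2 at 181018380 to 181043546 (minus strand), far from Chrna1 on the same chromosome. It had no count in LTR and 0, 6 and 0 counts in NF1, against 393, 669 and 284 counts in NSC. The NSC libraries were at 10.4, 12.1 and 7.61 CPM (mean 10.0 ± 2.25, SD, n = 3), and NF1 2 was at 0.192 CPM. With 3 counts set for the LTR group, Chrna4 was at least 321-fold lower in LTR than in NSC. In NF1 the log2 difference from NSC was -7.23 ± 1.14, and without NF1 2 the gene was at least 219-fold lower in NF1 than in NSC.

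Chrnb2 (ENSMUSG00000027950, chromosome 3 at 89746195 to 89764632, minus strand) encodes the beta subunit that pairs with Chrna4. It was at 0.770, 0.229 and 0.627 CPM in LTR and 0.463, 2.30 and 0.375 CPM in NF1, against 2.72, 1.23 and 1.98 CPM in NSC. The LTR libraries all lay below NSC, with a log2 difference of -1.85 ± 0.78, while NF1 overlapped with NSC through NF1 2, with a difference of -0.91 ± 0.75. Without NF1 2 the NF1 difference was -2.21. The count is uncertain, because 1365 of its 8380 exon bases (16.3%) overlap Adar on the other strand, which was at 27.1 to 56.0 CPM over the 9 libraries, and the library kit does not keep the strand.

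Chrna7 (ENSMUSG00000030525, chromosome 7 at 63098692 to 63212569, minus strand) encodes the alpha7 subunit, which forms channels without other subunits. It was low in all groups, at 0.770, 0.457 and 0.418 CPM in LTR and 0.116, 0.736 and 0.136 CPM in NF1, against 1.11, 1.79 and 0.670 CPM in NSC. LTR and NF1 each overlapped with NSC, and the log2 differences were -1.11 ± 0.73 for LTR and -1.85 ± 0.76 for NF1. Without NF1 2 the NF1 difference was -3.20.

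Chrna5 (ENSMUSG00000035594, chromosome 9 at 54980880 to 55007779, plus strand), the accessory subunit, was counted 1, 0 and 8 times in LTR and 10, 5 and 0 times in NF1, against 3, 19 and 2 times in NSC. The groups overlapped at these counts, and no difference was detectable at this depth. Chrnb4 (ENSMUSG00000035200, chromosome 9 at 55028154 to 55048779, minus strand), the ganglionic beta subunit, was counted 7, 7 and 8 times in NSC, where no tumour library had more than 2 counts. It was at least 5.25-fold lower in LTR than in NSC, and the scaled count ratio of NF1 to NSC was 0.25 with a 95% counting interval of 0.0625 to 0.735. Chrna3, the usual partner of Chrnb4, lies between Chrna5 and Chrnb4 and had 0 counts in LTR and 7 in NF1, all of them in NF1 2, against 12 in NSC. The 6 subunit genes outside the 10 (Chrna2, Chrna3, Chrna6, Chrna9, Chrna10 and Chrnb3) never passed 0.224 CPM, and Chrnb3 had no count in any library.

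In the comparison of LTR with NSC, 2 subunits were called higher (Chrna1 and Chrnb1) and 1 lower (Chrna4) of the 5 fitted, where 35.9% of all 15696 genes were called in either direction, 14.9% higher and 20.9% lower. NF1 against NSC gave the same 3 subunits in the same directions, where 23.1% of all genes were called, 10.1% higher and 13.1% lower. The subunits were chosen with these contrasts known and both comparisons share the NSC libraries, so nothing is read from these counts. In LTR against NSC, the libraries did not overlap for 2 fitted subunits on the higher side and 2 on the lower side (Chrna4 and Chrnb2), where 26.9% of all genes were higher and 32% lower without overlap, 59% in all. In NF1 against NSC this held for 2 on the higher side and 1 on the lower side, where 18.7% of all genes were higher and 23.7% lower without overlap, 42.3% in all. Without NF1 2, all 5 fitted subunits were called in NF1 against NSC, with Chrna7 and Chrnb2 added on the lower side, where 6900 of 16343 genes were called, and again nothing is read from it.

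Levels per length put the subunits on a common scale. CPM per kilobase of exon summed over the 10 genes was 31.5, 33.4 and 29.1 in LTR and 27.4, 14.7 and 24.7 in NF1, against 9.93, 7.31 and 10.3 in NSC. The sum was higher in every tumour library than in any NSC library, and NF1 2 was the lowest tumour library. The share of this sum in the 5 muscle-type genes was 99.1%, 99.6% and 99.2% in LTR and 99.4%, 96.3% and 99.6% in NF1, against 72.6%, 57.7% and 80.8% in NSC. The muscle-type share was thus already the larger one in NSC, and there it was nearly all Chrnb1, which made up 72.3%, 56.5% and 80.7% of the NSC sums. Chrna1 took 22.6%, 21.1% and 15.7% of the sum in LTR and 19.1%, 24.1% and 17.5% in NF1, against 0.122%, 1.24% and 0.119% in NSC. Chrna4 took 20.9%, 32.9% and 14.7% in NSC, and 0.261% in the only tumour library where it was counted.

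**Figure D2:**
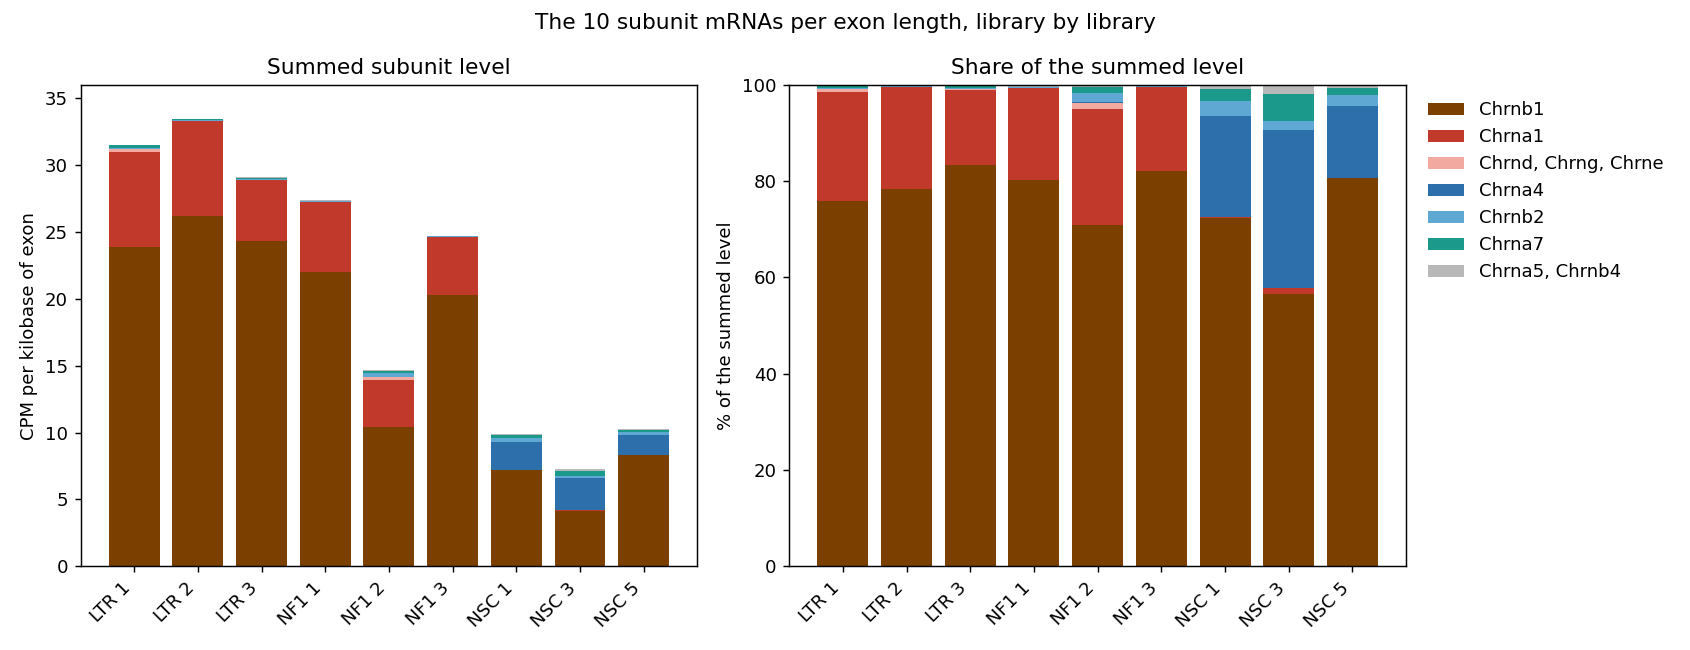
CPM per kilobase of exon of the 10 subunit mRNAs in each of the 9 libraries, stacked (left), and the same values as a percentage of each library's sum (right). Chrnb1 is the largest part in every library, Chrna1 is visible in the LTR and NF1 bars, and Chrna4 is visible in the NSC bars.

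The order of the mean levels per kilobase differed below the first place. In LTR it ran from Chrnb1 (24.8 ± 1.21) over Chrna1 (6.25 ± 1.46) to Chrna7 (0.122 ± 0.0429) and Chrnd (0.0967 ± 0.0959). In NF1 it ran from Chrnb1 (17.6 ± 6.27) over Chrna1 (4.36 ± 0.85) to Chrnb2 (0.125 ± 0.13). In NSC it ran from Chrnb1 (6.53 ± 2.16) over Chrna4 (2 ± 0.448) to Chrna7 (0.264 ± 0.125) and Chrnb2 (0.236 ± 0.0894), all as CPM per kilobase with SD and n = 3. The first 2 places of each group were separated by more than their SD, while Chrna7 and Chrnd in LTR and Chrna7 and Chrnb2 in NSC did not differ beyond theirs. Chrna1 was 7th of 10 in NSC, at 0.0383 ± 0.0452 CPM per kilobase.

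Where both were high, Chrna1 stood in a similar proportion to Chrnb1 in each tumour library. The ratio of their levels per length was 0.297, 0.270 and 0.188 in LTR and 0.238, 0.340 and 0.213 in NF1, against 0.00168, 0.0219 and 0.00147 in NSC. The tumour groups overlapped in this ratio, with means of 0.264 in NF1 and 0.252 in LTR. A whole muscle-type ring holds more alpha than beta subunits, while Chrna1 mRNA was below Chrnb1 mRNA per length in all 9 libraries, and no protein was measured.

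The 2 tumour groups were also set against each other. The log2 difference of NF1 from LTR was -0.52 ± 0.52 for Chrna1, -0.50 ± 0.33 for Chrnb1, -0.74 ± 0.76 for Chrna7 and 0.94 ± 0.77 for Chrnb2. Chrna4 had 6 counts in NF1, all in NF1 2, and 0 in LTR. Among the subunits that were not fitted, Chrnd had 0 counts in NF1 and 31 in LTR, with most of the LTR counts in LTR 1, and the scaled count ratio of NF1 to LTR was 9.83 for Chrng (95% counting interval 2.39 to 86.8), which rests on NF1 2. Chrnb1 was lower in all 3 NF1 libraries than in any LTR library, and Chrna1, Chrna7 and Chrnb2 overlapped between the 2 tumour groups. No fitted subunit was called, and none of the 5 had an unadjusted p under 0.05 by edgeR, DESeq2 or limma-voom. The share of all genes called was 0% by edgeR, with 1596 genes at an unadjusted p under 0.05, 330 called by DESeq2 and 1 by limma-voom, and 12.5% of all genes had no overlap between the libraries of NF1 and LTR, 7.21% higher and 5.24% lower in NF1. Without NF1 2 the difference was -0.38 for Chrnb2, which turns its direction, and -2.1 for Chrna7, and Chrna4 had no count in either tumour group. The differences of Chrna1, Chrna7 and Chrnb2 over all libraries are close to the size of their errors, which does not show that the levels were the same.

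The nearest protein-coding genes on each side, and the non-coding Chrna1os before the Chrna1 start, were looked at by position after the subunit values were known. Wipf1, which binds actin regulators, lies 33.48 kb from the end of Chrna1. It was at 139, 105 and 122 CPM in LTR and 162, 112 and 139 CPM in NF1, against 41.0, 42.3 and 44.5 CPM in NSC, and was called higher in LTR (log2 fold change 1.51 ± 0.19, adjusted p = 0.00128) and in NF1 (1.69 ± 0.19, adjusted p = 0.00121). Chn1, a regulator of Rac signalling that lies 30.32 kb on the other side, was higher in LTR (1.73 ± 0.42, adjusted p = 0.0126) and in NF1 (1.8 ± 0.42, adjusted p = 0.0155). Chn1 calls were lost without NSC 1 or NSC 5, and in NF1 also without NF1 1 or NF1 3. Both neighbours were higher by about 3-fold, where 14.9% of all genes were called higher in LTR and 10.1% in NF1. Chrna1 between them was higher by over 100-fold, but it was chosen for its difference. Whether this stretch of chromosome 2 changed as a whole was not tested.

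Chrna1os (ENSMUSG00000086382) lies on the other strand, at 73584850 to 73589208 on chromosome 2, and starts 4.51 kb before Chrna1 without overlapping it. It was at 3.47, 5.76 and 2.54 CPM in LTR and 1.82, 1.63 and 4.03 CPM in NF1, against 0.767, 1.97 and 0.992 CPM in NSC. It was called higher in LTR (1.65 ± 0.56, adjusted p = 0.0457) and not in NF1 (1 ± 0.55, adjusted p = 0.215). The LTR call was lost without any 1 of the LTR libraries, NSC 1, NSC 5 or NF1 1. NF1 1 and NF1 2 both lay below NSC 3, so Chrna1os did not separate the groups as Chrna1 did.

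**Figure D3:**
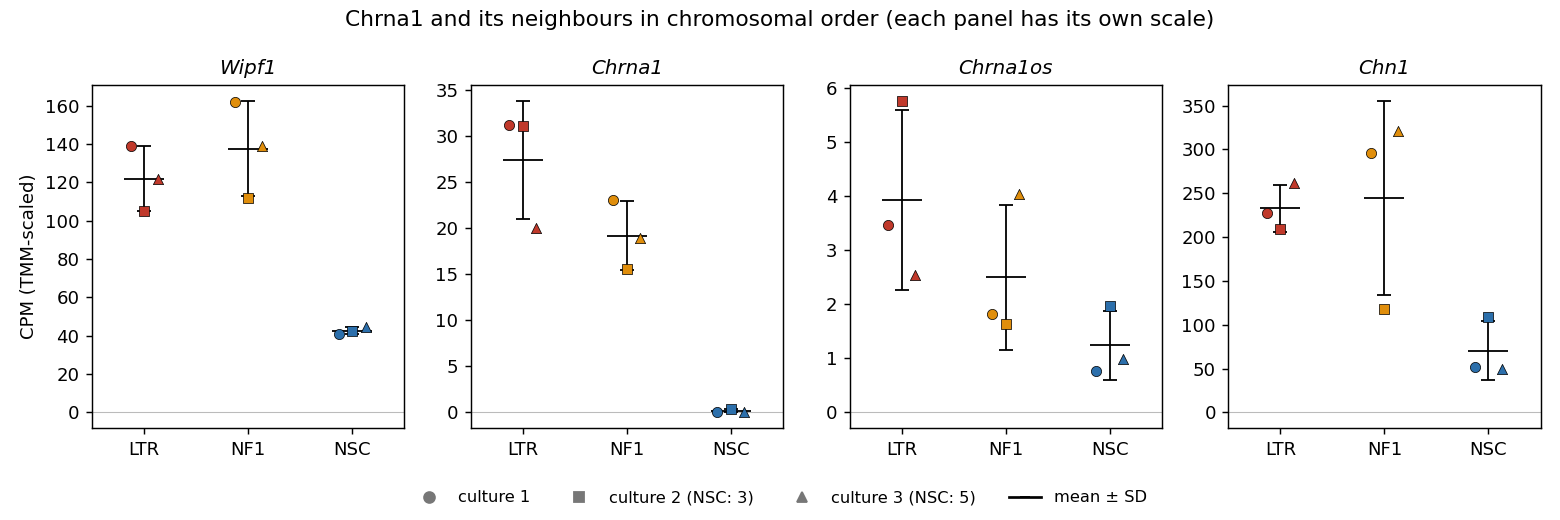
TMM-scaled CPM of Wipf1, Chrna1, Chrna1os and Chn1, in their order along chromosome 2, for LTR, NF1 and NSC from left to right, with points for the cultures and bars for the mean ± SD (n = 3). Wipf1 and Chrna1 show no overlap between tumour and NSC libraries, while Chrna1os of NF1 1 and NF1 2 lies below NSC 3.

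Around the other subunits the neighbours moved in different ways. Zbtb4 and Fgf11 flank Chrnb1 at 0.01 and 0.12 kb and were not called in LTR (log2 differences -0.96 and -1.01) or in NF1 (-0.18 and -0.95), where Chrnb1 was higher. Prss56, a serine protease gene 2.20 kb from Chrnd, was called higher in LTR (5.96 ± 0.86, adjusted p = 0.0018) and in NF1 (5.95 ± 0.86, adjusted p = 0.0026) at a mean of 0.705 CPM in LTR and 0.699 CPM in NF1, against 0.00882 CPM in NSC, while Chrnd itself was above NSC in LTR and at 0 in NF1. Next to Chrnb2, the potassium channel gene Kcnn3 was lower in LTR (-5.59 ± 1.27, adjusted p = 0.0099) and not called in NF1 (-3.48 ± 1.13, adjusted p = 0.0521), in the direction of Chrnb2, while Ube2q1 on the other side was higher in LTR (0.55 ± 0.15, adjusted p = 0.0212, lost without NSC 1, NSC 5 or LTR 1) and in NF1 (0.64 ± 0.15, adjusted p = 0.0171, lost without NSC 1, NSC 5, NF1 1 or NF1 3). Gp1ba, beside Chrne, was lower in LTR (-2.42 ± 0.81, adjusted p = 0.0422), a call lost by limma-voom and without NSC 1, NSC 5, any LTR library or NF1 1.

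Some genes followed the pattern of a subunit across the 9 libraries more closely than the rest, measured by Pearson's r of log2 CPM over 12616 genes with a mean of at least 1 CPM in a group. The closest to Chrna1 were Tmem151a (r = 0.9945), Twist2 (0.9936) and Prss16 (0.9917). Twist2, which encodes a basic helix-loop-helix transcription factor, was at 10.9, 20.4 and 8.62 CPM in LTR and 9.01, 3.01 and 10.2 CPM in NF1, against 0, 0.0541 and 0 CPM in NSC. The closest to Chrna4 were Gabrg1 (r = 0.9986) and Gabra4 (0.9984), which encode subunits of the GABA-A receptor, and the desmosomal cadherin Dsc2 (0.9982). All 3 had no count in LTR, NF1 1 or NF1 3 and were counted in NF1 2 and in every NSC library. The closest to Chrnb1 were Uimc1 (0.9942), Zfp960 (0.9902) and 2610044O15Rik8 (0.9881). These values describe 9 points in 3 groups, and a gap between groups alone gives a high r.

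Genes around the receptors were taken from 7 lists besides the subunits, which include myogenic regulators and markers of skeletal muscle and of neurons. Of their 91 genes outside the 10 subunits, the 6 further nicotinic subunits included, 47 could be fitted. These 47 hold 12 neuronal markers and 6 skeletal muscle markers, so they do not all work with the receptors. In LTR against NSC 7 of the 47 were higher and 21 lower, where 14.9% of all genes were higher and 20.9% lower. In NF1 against NSC 6 were higher and 18 lower, where 10.1% of all genes were higher and 13.1% lower. The neuronal markers gave 6 of the 21 lower calls in LTR and 7 of the 18 in NF1. The counts of the single lists below are read against the same shares. The median log2 difference of these 47 was -1.35 in LTR and -0.99 in NF1, against -0.06 and 0 for all genes.

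**Figure D4:**
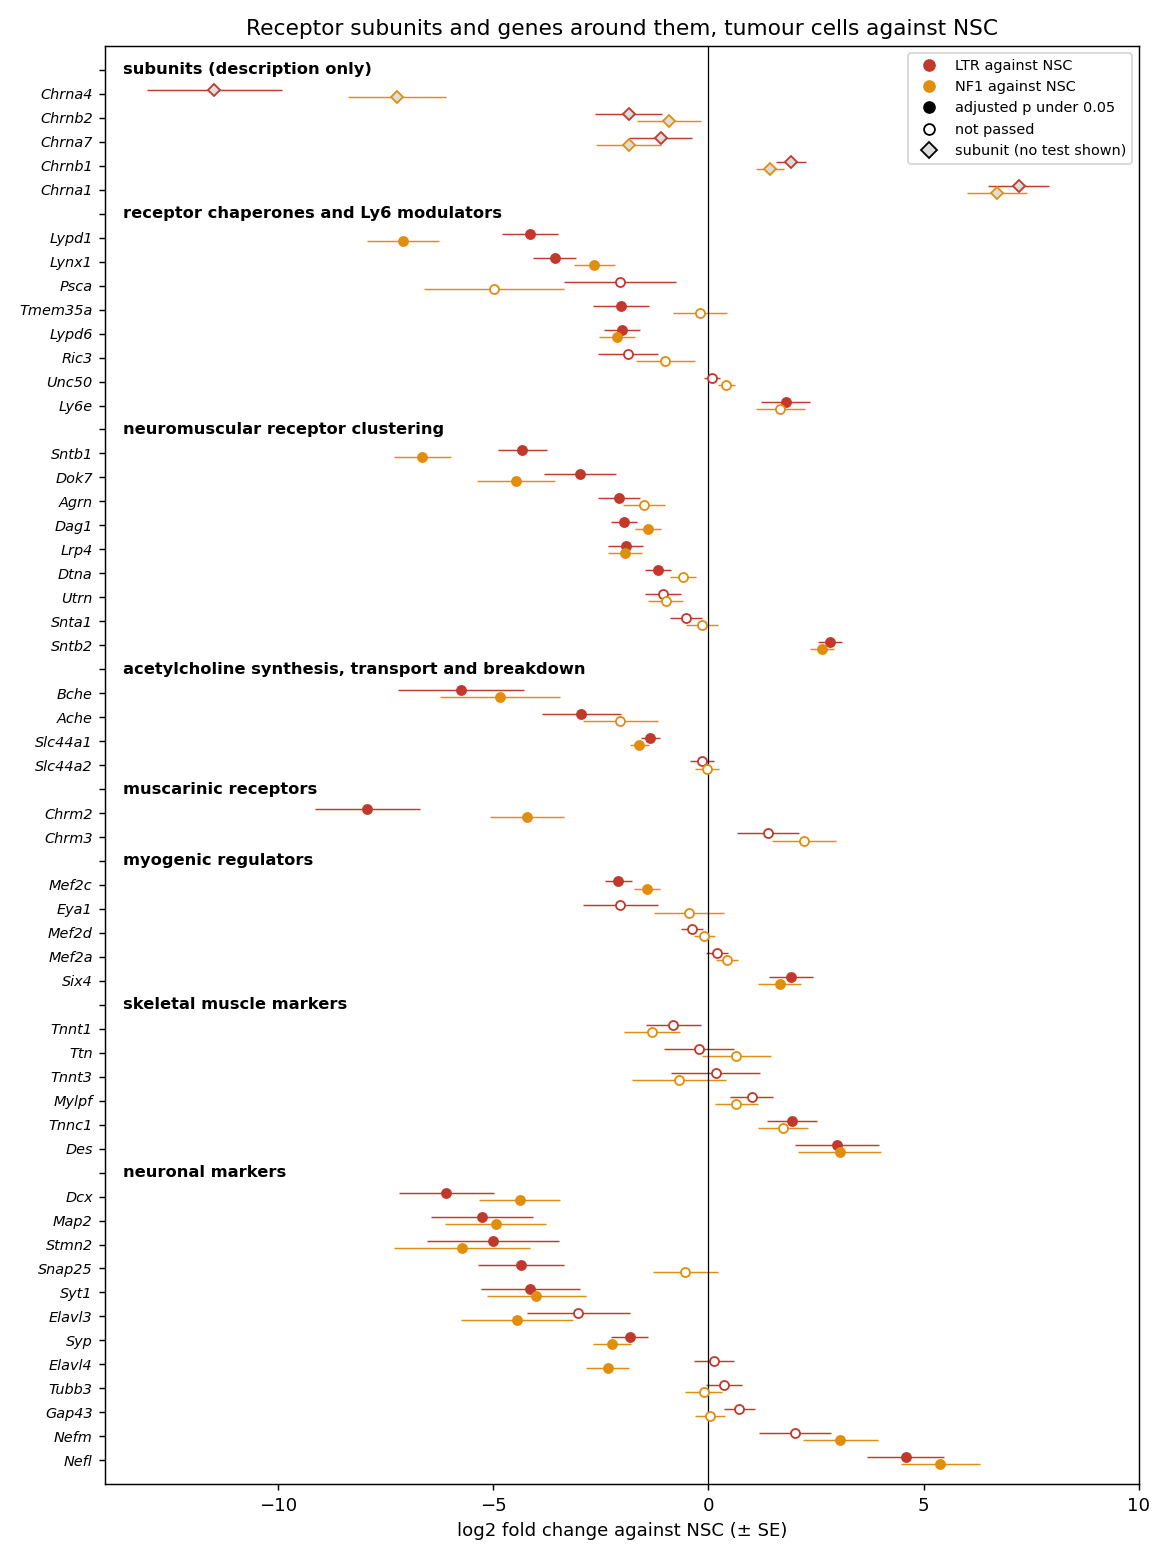
Log2 fold change with its SE of the fitted genes reported here, LTR against NSC in red and NF1 against NSC in orange, by list. Filled circles mark an adjusted p under 0.05 by edgeR, open circles genes that did not pass, and grey diamonds the subunits, shown without a test. Chrna4 and Chrm2 have no count in LTR, so their fitted LTR values only show the direction, and most filled circles outside the subunits lie left of 0.

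Receptor chaperones and Ly6-family modulators set how many receptors reach the surface and how readily they open. Of 8 fitted, 4 were lower and 1 higher in LTR, and 3 were lower and none higher in NF1. Lynx1, which dampens brain nicotinic receptors, was at 7.11, 3.96 and 5.28 CPM in LTR and 8.11, 18.6 and 4.37 CPM in NF1, against 62.5, 70.4 and 62.0 CPM in NSC. It was 11.9-fold lower in LTR (adjusted p = 0.00163) and 6.28-fold lower in NF1 (adjusted p = 0.00579). Lypd1 and Lypd6, other members of that family, were also lower in both, by log2 values of -4.13 and -2 in LTR (adjusted p = 0.00236 and 0.00714) and -7.09 and -2.12 in NF1 (adjusted p = 0.00132 and 0.00821).

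The chaperones of the alpha7 receptor depended on single cultures. Tmem35a, known as NACHO, was lower in LTR (-2.02 ± 0.65, adjusted p = 0.0374, a call lost without NSC 1, NSC 3, NSC 5, LTR 1 or LTR 3) and was not called in NF1 (-0.19 ± 0.62, adjusted p = 0.844), where NF1 2 alone reached 71.3 CPM. Ric3 did not pass in LTR (-1.87 ± 0.70, adjusted p = 0.0625) or in NF1 (-1 ± 0.68, adjusted p = 0.307), and NF1 2 was again the highest tumour library at 29.1 CPM. Ly6e was the only list member called higher in LTR (1.8 ± 0.57, adjusted p = 0.0351), and this call was lost without any 1 of the NSC or LTR libraries. The trafficking gene Unc50 was the most abundant member that did not pass in LTR, at 49.9 ± 5.69 CPM in LTR and 63.1 ± 13 CPM in NF1, against 47.3 ± 0.18 CPM in NSC. Without NF1 2 the list gave 6 lower and 2 higher in NF1. Among them, Ric3 (-2.16, adjusted p = 0.0107) and Tmem35a (-1.28, adjusted p = 0.0479) were lower, and Ly6e (2.16, adjusted p = 0.000349) was higher. In LTR it gave 3 lower and 0 higher without any 1 of the NSC libraries, LTR 1 or LTR 3. Without LTR 2 it gave 4 lower and 0 higher there, and 5 lower and 1 higher without NF1 2 or NF1 3.

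Genes of receptor clustering at the neuromuscular junction did not rise with Chrna1. Of 9 fitted, 6 were lower and 1 higher in LTR, and 4 were lower and 1 higher in NF1. The LTR count was 4 lower without NSC 1, NSC 5, LTR 2 or LTR 3, and 7 lower without NSC 3 or LTR 1. Dok7, the activator of the muscle kinase MuSK, was at 1.42, 0.229 and 0.328 CPM in LTR and 0.232, 0.064 and 0.409 CPM in NF1, against 7.01, 2.60 and 6.19 CPM in NSC. It was lower in LTR (-2.98 ± 0.83, adjusted p = 0.022, lost without NSC 1, NSC 5, LTR 2 or LTR 3) and in NF1 (-4.47 ± 0.91, adjusted p = 0.00918). Lrp4, the receptor for agrin, was lower in LTR (-1.92 ± 0.40, adjusted p = 0.00697) and in NF1 (-1.94 ± 0.40, adjusted p = 0.00949). Dystroglycan (Dag1) was lower in LTR (-1.96 ± 0.31, adjusted p = 0.00231) and in NF1 (-1.4 ± 0.30, adjusted p = 0.0116), and the syntrophin Sntb1 was 20.0-fold lower in LTR (adjusted p = 0.00133) and 99.4-fold lower in NF1 (adjusted p = 0.00082). Agrn, which encodes agrin, and Dtna, which encodes a dystrobrevin, were lower in LTR (adjusted p = 0.012 and 0.0168, the Dtna call lost without NSC 1, NSC 5, LTR 2 or LTR 3) and did not pass in NF1 (adjusted p = 0.0525 and 0.189). Without NF1 2 both were called lower in NF1 (Agrn -2.13, adjusted p = 0.00342, and Dtna -0.89, adjusted p = 0.0269). DESeq2 and limma-voom called Agrn lower in NF1 over all libraries (adjusted p = 0.00884 and 0.037). The related syntrophin Sntb2 was the only list member called higher, by 7.12-fold in LTR (adjusted p = 0.000608) and 6.2-fold in NF1 (adjusted p = 0.001). The most abundant member that passed in neither comparison was utrophin (Utrn), at a mean of 63.3 CPM in LTR and 66.3 CPM in NF1, against 131 CPM in NSC. Rapsn, which encodes the scaffold rapsyn that holds muscle-type receptors in place, stayed at or below 0.563 CPM in every library, and Musk had no count in any tumour library.

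For the transmitter itself, no library showed the genes of a cholinergic neuron. Chat, the synthesizing enzyme, and Slc18a3, the vesicular transporter, had no count in any of the 9 libraries, and the choline transporter Slc5a7 had 1 count in all. Of 4 fitted genes of acetylcholine handling, 3 were lower in LTR and 2 in NF1, with none higher. The esterase Bche was at 0.0296, 0.762 and 0.239 CPM in LTR and 0.0869, 1.79 and 0 CPM in NF1, against 18.4, 18.7 and 17.2 CPM in NSC. It was lower in LTR (-5.74 ± 1.47, adjusted p = 0.016, lost without LTR 3) and in NF1 (-4.84 ± 1.39, adjusted p = 0.0346, lost without any NSC library, LTR 3 or NF1 1). The choline transporter-like gene Slc44a1 was lower in LTR (-1.35 ± 0.22, adjusted p = 0.0027) and in NF1 (-1.60 ± 0.22, adjusted p = 0.00221). Slc44a2 was the member that passed in neither comparison. Ache, which breaks down acetylcholine at synapses, was lower in LTR (-2.95 ± 0.92, adjusted p = 0.0338, lost without any 1 of the NSC or LTR libraries) and did not pass in NF1 (-2.05 ± 0.87, adjusted p = 0.115). Without NF1 2 it was called lower in NF1 (-3.6, adjusted p = 0.00951).

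The muscarinic receptors, the other class of acetylcholine receptor, were represented by Chrm2 and Chrm3. Chrm2 had no count in LTR and was at least 27.5-fold lower there than in NSC (adjusted p = 0.00381), and it was 18.5-fold lower in NF1 (adjusted p = 0.0134). Chrm3 was at 17.7, 19.7 and 31.4 CPM in LTR and 41.6, 49.0 and 31.7 CPM in NF1, against 2.41, 20.7 and 2.95 CPM in NSC. NSC 3 lay far above the other NSC cultures and inside the range of LTR, and Chrm3 did not pass in LTR (1.39 ± 0.72, adjusted p = 0.156) or in NF1 (2.22 ± 0.74, adjusted p = 0.0566). Without NSC 3 it was higher in LTR (3.22, adjusted p = 0.00124) and in NF1 (4.01, adjusted p = 0.000718).

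The myogenic factors that drive Chrna1 in muscle were not detected beside it. Myf5, Myog and Myf6 had no count in any library, and Myod1 had none in the 6 tumour libraries, against 5 counts over the 3 NSC libraries, where 3 counts correspond to 0.0321 CPM over the LTR group, 0.0315 CPM over NF1 and 0.023 CPM over NSC.

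Six4, a homeobox gene of muscle development, was at 28.3, 18.3 and 25.3 CPM in LTR and 27.7, 7.26 and 24.6 CPM in NF1, against 7.51, 3.48 and 7.88 CPM in NSC. It was higher in LTR (1.93 ± 0.51, adjusted p = 0.0174) and in NF1 (1.66 ± 0.50, adjusted p = 0.0418), and the NF1 call was lost by limma-voom and without any NSC library, LTR 1, LTR 3, NF1 1 or NF1 3. Mef2c, which works with the myogenic factors in muscle, went the other way and was lower in LTR (-2.09 ± 0.31, adjusted p = 0.0019) and in NF1 (-1.43 ± 0.30, adjusted p = 0.0109). Mef2a, Mef2d and Eya1 did not pass in either comparison. Eya1 was called lower in LTR by DESeq2 (-2.01, adjusted p = 0.0495) and, by edgeR, without NF1 2 (-2.03, adjusted p = 0.026).

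**Figure D5:**
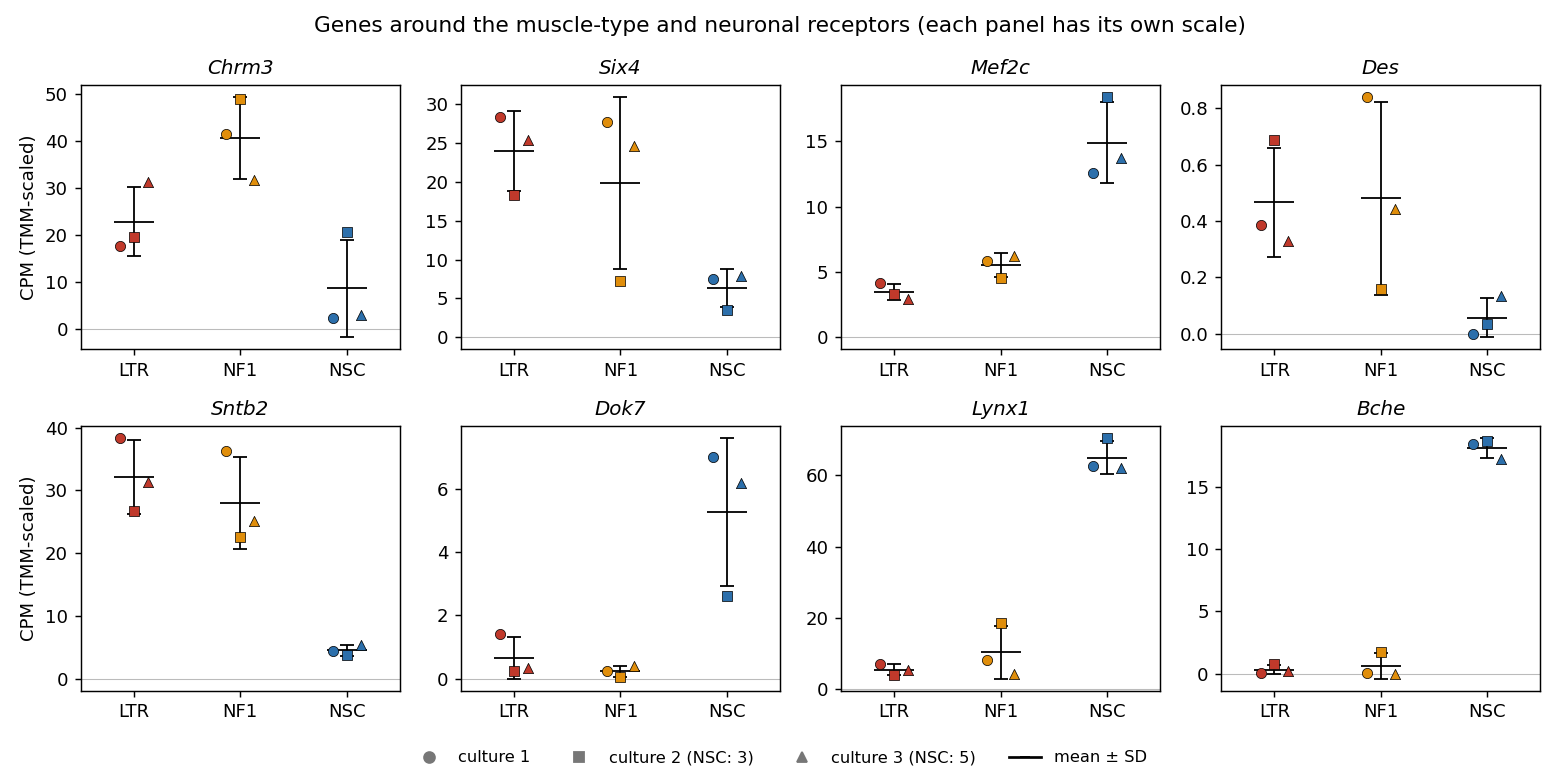
TMM-scaled CPM of 8 genes around the receptors in LTR, NF1 and NSC, from left to right, with points for the cultures and bars for the mean ± SD (n = 3). Sntb2 was higher in all 6 tumour libraries, Mef2c, Dok7, Lynx1 and Bche were lower, and the Des panel ends below 1 CPM.

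Skeletal muscle itself was not seen. Of 20 muscle markers, 14 were too low to be fitted, and Actc1 and Myh4 had no count in any library. The summed level of the 20 was 3.41 to 7.21 CPM in LTR and 3.82 to 5.57 CPM in NF1, against 3.51 to 3.97 CPM in NSC. Desmin (Des) was called higher in LTR (2.99 ± 0.97, adjusted p = 0.0384) and in NF1 (3.05 ± 0.97, adjusted p = 0.0485) at no more than 0.840 CPM, and the troponin gene Tnnc1 in LTR (1.95 ± 0.58, adjusted p = 0.0286). These calls depended on single libraries: the LTR count of 2 was 0 without NSC 1, NSC 3 or LTR 2, and the NF1 count of 1 was 0 without NSC 1, NSC 3, LTR 1, LTR 3, NF1 1 or NF1 3. In bulk RNA, fewer cells of a type and less RNA per cell cannot be told apart.

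Neuronal markers did not follow Chrna4 as a block. Of 12 fitted, 6 were lower and 1 higher in LTR, and 7 were lower and 2 higher in NF1. Doublecortin (Dcx) of young neurons was at 0.0296, 0 and 0 CPM in LTR and 0.029, 0.032 and 0.0682 CPM in NF1, against 0.503, 1.95 and 0.375 CPM in NSC (adjusted p = 0.00432 for LTR and 0.0116 for NF1, the NF1 call lost without NF1 1). Map2, a dendritic protein gene, was 38.3-fold lower in LTR (adjusted p = 0.00984) and 30.6-fold lower in NF1 (adjusted p = 0.0168). The synaptic vesicle gene Syp was lower in LTR (-1.83 ± 0.44, adjusted p = 0.0122, lost without LTR 3) and in NF1 (-2.24 ± 0.44, adjusted p = 0.00825). Syt1 and Stmn2 were lower in both as well, with log2 values of -4.13 and -5 in LTR (adjusted p = 0.0219 and 0.0308) and -3.99 and -5.73 in NF1 (adjusted p = 0.0337 and 0.0299). Each of these calls was lost without NSC 1 or NSC 5. The LTR calls were also lost without LTR 1 or LTR 2, that of Stmn2 also without LTR 3, and the NF1 calls without NF1 1 or NF1 3. Snap25 passed in LTR alone (-4.34, adjusted p = 0.0105), and Elavl4 (-2.34, adjusted p = 0.011) and Elavl3 (-4.44, adjusted p = 0.0366, lost without any NSC library, LTR 3, NF1 1 or NF1 3) in NF1 alone, while the difference between NF1 and LTR was not called for any of them by edgeR (DESeq2 called Elavl4). Gap43 and Tubb3 were the most abundant markers that did not pass in either comparison. The neurofilament gene Nefl was instead 24.0-fold higher in LTR (adjusted p = 0.00546) and 42.0-fold higher in NF1 (adjusted p = 0.00471), and its partner Nefm was higher in NF1 (3.06 ± 0.87, adjusted p = 0.0327, lost without NSC 1, NSC 5 or NF1 1). In LTR, Nefm did not pass by edgeR (2.01 ± 0.83, adjusted p = 0.0854). It was called higher there without NSC 3 (3.95, adjusted p = 0.00304), by DESeq2 (adjusted p = 0.024) and by limma-voom (adjusted p = 0.0244). The summed level of the 15 markers was 585 to 1220 CPM in LTR and 845 to 1827 CPM in NF1, against 516 to 664 CPM in NSC. Nefl and Nefm together made up most of it in each tumour library. The counts of both groups were smaller without single libraries. In LTR, 4 were lower without NSC 1, NSC 5 or any 1 of the LTR libraries. In NF1, 4 were lower without NSC 1, NSC 5 or NF1 3 and 3 were lower without NF1 1. How far these markers account for the level of Chrna4 was not tested.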

How the data were processed

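RNA of 9 cultures was sequenced after NEBNext Ultra RNA library preparation, per the labels' protocols. The authors deposited raw read counts per gene. STAR 2.5.2a, HTSeq and DESeq2 1.8.2 are named, with the builds GRCm38 and mm10, per the submitters' processing notes. Annotation release, counting mode and strand setting: not given in the sources used here. Genes were analysed by identifier, since 126 symbols occur more than once. Coordinates and exon lengths are those of GENCODE M21 (GRCm38) and promoter windows those of RefSeq (GRCm38.p6).

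Counts were fitted in R 4.3.3 with edgeR 4.0.16 (TMM scaling, filterByExpr with a minimum count of 10, quasi-likelihood F test) as one model of the 3 groups over all 9 libraries, which kept 15696 genes. The 3 pairs of groups were compared, p-values were adjusted by Benjamini-Hochberg over all these genes, and a gene was called at an adjusted p under 0.05. CPM are TMM-scaled, fold changes carry a prior count of 0.125, and SE come from the F statistic. Levels per length are CPM per kilobase of merged exons, with the longest transcript as an alternative. Where a group had no count, its level was set to 3 counts over the group, and with few counts a ratio with an exact 95% interval is given. Within a group, libraries differed by a chi-square of 13.4 to 395 per degree of freedom, so no library is a copy of another. All value columns were used.

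The members and the lists were chosen with earlier results of these data known. Named are all 10 subunits, the listed genes (values for those called, names for the most abundant others), and for the 3 subunits with the highest mean CPM the 3 genes with the highest correlation. The neighbours were added after the values were seen. So were Sox2, Nes, Olig2, Egfr, Slc1a3, Trp53, Nf1, Cdk4 and Hras, as checks of the labels. Alternatives were DESeq2 1.42.0, limma-voom (limma 3.58.1), other scalings and filters, fits without the third group, a replicate block, the leaving out of every library in turn, and of NF1 2 and NSC 3 together. The fit was checked on simulated counts with known changes. A gene of the myogenic regulator list is counted in the totals over all lists and is not reported here by itself.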

Additional observations from a re-analysis of the deposited data

How the results depend on the processing

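The subunits were chosen on the differences from NSC, so the ranges of their values over the alternatives are a description and no sign of stability. The log2 difference of Chrna1 ranged from 6.82 to 9.03 in LTR and from 6.31 to 8.57 in NF1, and that of Chrnb1 from 1.74 to 2.33 and from 1.24 to 1.76. No called value changed sign.

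Leaving out 1 library at a time, the genes called numbered 3281 to 7640 in LTR against NSC, 1752 to 6900 in NF1 against NSC and 0 to 34 in NF1 against LTR. The subunits called numbered 3 to 4 in LTR against NSC and 2 to 5 in NF1 against NSC, and the list genes 19 to 33 in LTR against NSC and 16 to 34 in NF1 against NSC. Both counts stayed at 0 in NF1 against LTR. The highest NF1 counts were those without NF1 2. Without NF1 2 and NSC 3 together, 7485 genes and 5 subunits were called in NF1 against NSC, and 104 genes and 1 list gene in NF1 against LTR (Pax3, which had no count in the NF1 library left out). For NF1 against LTR, DESeq2 called 330 genes and 1 list gene (Elavl4), limma-voom 1 gene, and the fit without a filter 52 genes. The cause was not tested.

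With the replicate number as a block, 3477 genes were called in LTR against NSC and 1942 in NF1 against NSC, with 15 list genes in NF1 against NSC. NSC 5 is the only library with the number 5, so the block takes it out of the comparisons. Without NSC 5 and with no block, 3452 and 1857 genes were called. The numbers did not pair the cultures: deviations of same-numbered libraries from their group means correlated at 0.108, -0.004 and -0.165 between LTR and NF1. Genes under about 0.1 CPM are limited by counting.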

Other observations

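Pax3, a paired-box gene of neural crest and muscle precursors on the list of myogenic regulators, was at 7.50, 0 and 6.75 CPM in NF1 1 to 3 and at 0.148, 0 and 0 CPM in LTR, against 0 in every NSC library. It was counted in 2 cultures of NF1 and not in NF1 2, the only tumour culture in which Chrne and Chrna4 were counted, and it did not pass the filter on low counts.

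NF1 2 was the tumour library with the highest count of several subunits. It held 19 of the 20 Chrng counts of NF1, both Chrne counts, all 6 Chrna4 counts of the tumour libraries and all 7 Chrna3 counts of the tumour libraries, and it had the highest Chrnb2 level of any tumour library.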
